A study of Homo sapiens with 5 samples.

Results

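The 22 autosomes were divided into windows of 10 Mb, counted from base 1 of each chromosome, and the RNA of all the genes in a window was read together. A gene was used where its mean over the libraries was at least 100 normalized counts, that is, counts divided by a size factor for sequencing depth, and where its Ensembl identifier placed it on an autosome of the GRCh37 (hg19) assembly. Of the 30476 genes deposited, 11001 met both conditions and fell into 291 windows, of which 282 held at least 5 genes and were tested (10976 genes). The 9 windows below that number held 25 genes. MPV17L (mean of 100.01 normalized counts) was just inside the filter and PAXIP1-AS2 (99.931) just outside it. For each window the median over its genes of the log2 ratio of a clone to parental cells was taken, and likewise of clone 4 to clone 3, with the untreated and treated libraries of a clone averaged.

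The cells are TOV21G, a cell line from ovarian clear cell carcinoma that carries an ARID1A mutation, and 2 clones of it that grew resistant to GSK126, an inhibitor of the histone methyltransferase EZH2. These EZH2 inhibitor-resistant (EIR) clones, numbered 3 and 4, were picked after selection in steps of 5, 10, 15 and 20 uM GSK126. RNA-seq covered untreated parental cells (1 library), untreated and GSK126-treated clone 3 (2 libraries) and untreated and GSK126-treated clone 4 (2 libraries), so that each clone stands for itself only and its 2 libraries differ in treatment. The labels give no dose or duration for the treated cultures. Comparisons of either clone with parental cells share the same parental library.

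As background, genes that lie on the same stretch of a chromosome share its copy number, and in cancer lines with gains and losses the transcripts of such a stretch tend to shift together by a modest amount. A single gene also answers to its own promoter and enhancers, so a regional shift shows in the median over many neighbours rather than in any gene alone. RNA levels cannot tell a change in DNA copy number apart from regional control of transcription, and DNA was not measured here.

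Total counts were 25479238 to 30764963 per library. Of 9 markers of clear cell carcinoma and epithelium, 8 matched an identifier and 5 (PAX8, KRT8, KRT18, SPP1 and ARID1A) had at least 100 normalized counts in every library, the list summing to 30960 to 67570. EPCAM was at 0 and 1.06 normalized counts in clone 4. Of 8 markers of blood, endothelial and stromal cells, 6 matched and only ACTA2 reached 100, the list summing to 424.9 to 1001.

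The regions that stood out across the genome were most of chromosome 10, lower in both clones, and a stretch of chromosome 8 that separated the clones. Windows 1 to 11 of chromosome 10, which hold 2 lowered runs with shallow windows between them, were below parental in both clones, at a median log2 ratio over their 371 genes of −0.52 in clone 3 and −0.55 in clone 4, or 69.8% and 68.5% of the parental level. Windows 8 to 12 of chromosome 8 (108 genes) were higher than parental in clone 3 by 0.70 and in clone 4 by 0.33, and clone 4 was lower than clone 3 there by 0.42 on the log2 scale. After the correction for GC content described below, this stretch was at 0.34 in clone 3 and 0.07 in clone 4, with −0.41 between the clones. Over all 11001 autosomal genes the uncorrected medians were −0.05, −0.08 and −0.03 for clone 3 against parental, clone 4 against parental and clone 4 against clone 3.

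**Figure D1:**
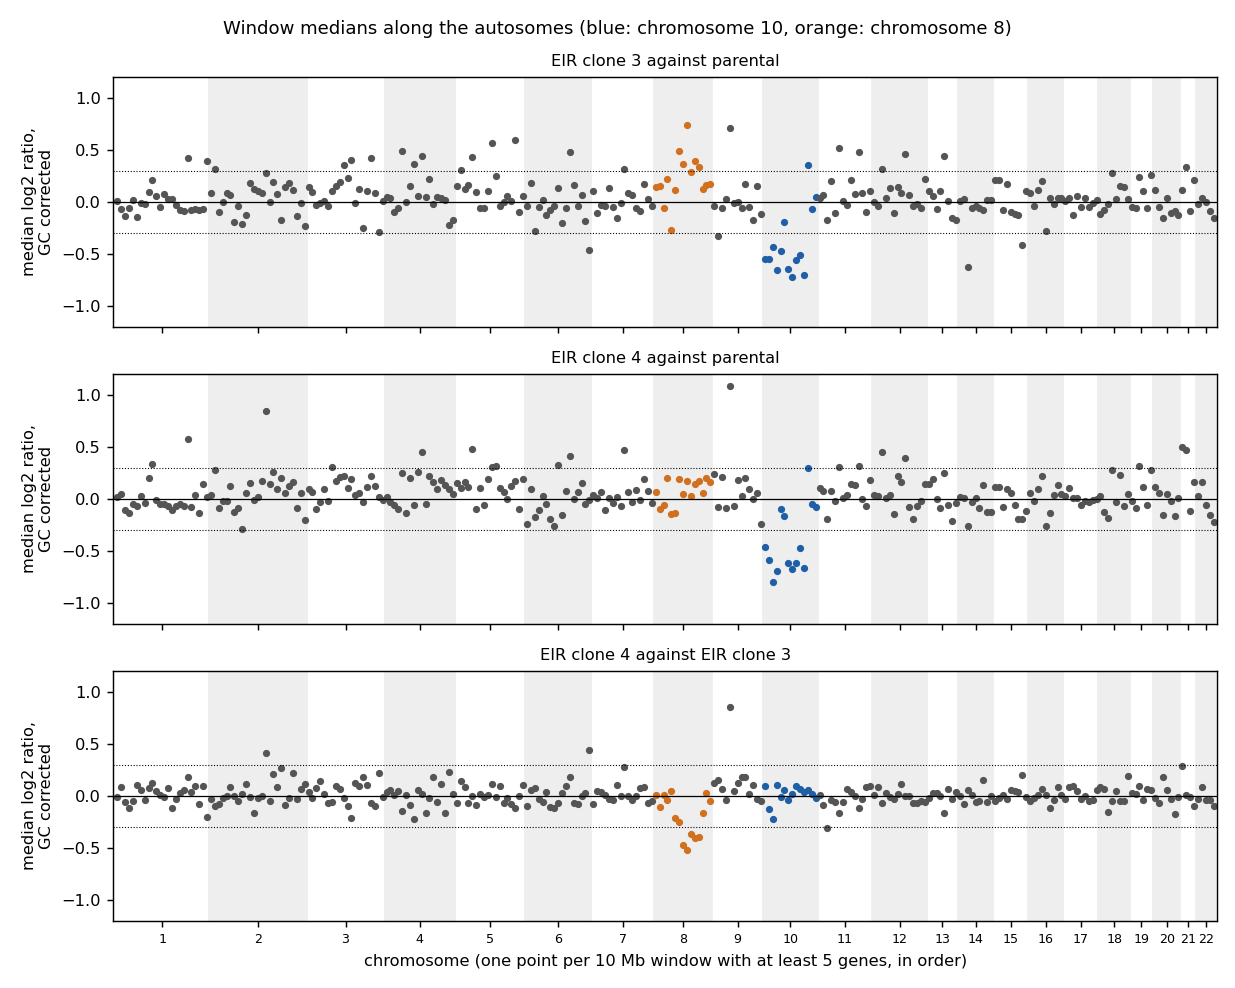
Median log2 ratio of each tested 10 Mb window along the autosomes after correction for GC content, with chromosome 10 in blue and chromosome 8 in orange; the dotted lines mark 0.3 in either direction. The windows below the lower line in both clones are the 9 on chromosome 10, and the row of windows below it in clone 4 against clone 3 is on chromosome 8.

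The window medians against parental cells followed the base composition of the transcripts. Windows whose genes had a low GC content were higher in the clones and windows rich in GC were lower, with a Pearson correlation of −0.68 in clone 3 and −0.72 in clone 4 over 282 windows (Spearman −0.76 and −0.79). For clone 4 against clone 3 it was −0.16 (Spearman −0.23). These windows share the same libraries and the same parental reference, so the correlations are descriptions. Within a clone, the difference between its treated and its untreated library also went with GC, with a correlation of −0.63 in clone 3 and 0.51 in clone 4. Whether library preparation or the cells set this relation was not tested, and with 1 parental library it cannot be told apart from the difference between clones and parental cells. Values after a GC correction of each library, a local regression on GC over all expressed autosomal genes, are therefore given beside the uncorrected ones.

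**Figure D2:**
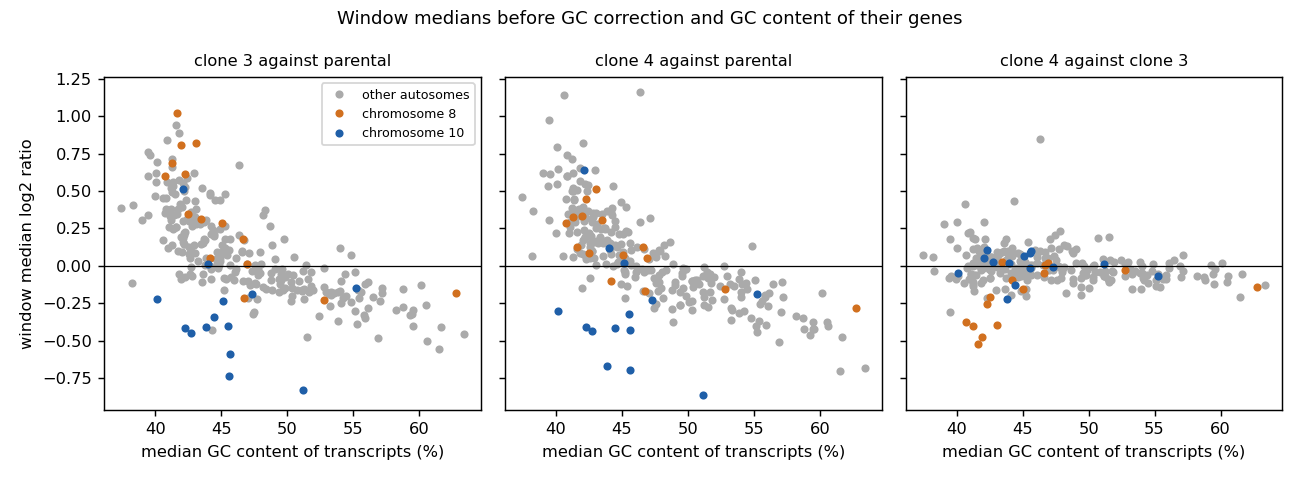
Uncorrected window medians (log2 ratio) against the median GC content of the transcripts in the window (%), 1 point per tested window. Medians against parental cells fall from low to high GC (Pearson −0.68 and −0.72), and most windows of chromosome 10 (blue) lie under the cloud at their GC content.

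The test of windows was limma on the library medians, with 3 groups and adjustment over the 282 windows. Its error came only from the difference between the untreated and treated library of a clone, which spread over windows with an SD of 0.055 in clone 3 and 0.090 in clone 4, so its p-values say nothing about the spread of parental cultures. That error was shared by all windows with the same number of genes, so the p-value of a window did not reflect its own spread. At an adjusted p under 0.05 the test called 174 of 282 windows in clone 3 (61.7%) and 172 in clone 4 (61%) against parental cells. After GC correction it called 129 in each (45.7% and 45.7%). With calls this common, a called window against parental cells carries little by itself, and size and neighbourhood are given instead. Between the clones 39 windows were called (13.8%), 34 of them lower in clone 4 (12.1%) and 5 higher, and 71 (25.2%) after GC correction. All 39 had the same sign in the untreated and in the treated pair of libraries. The call rests on the mean of these same pairs, which favours a shared sign, so the agreement is no independent support. Of the 39, 17 were smaller than 0.1 on the log2 scale. Single genes were tested with DESeq2, whose spread also came only from the untreated and treated libraries of each clone. Its SEs and p-values against parental cells therefore likewise leave out the spread of parental cultures.

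Neighbouring windows resembled each other. The correlation between adjacent windows over 260 pairs was 0.44 in clone 3, 0.37 in clone 4 and 0.26 between the clones, and 0.34, 0.30 and 0.27 after GC correction. A run was defined as at least 2 neighbouring tested windows past 0.3 in the same direction. The window nearest to that limit from inside was at −0.31 between the clones (chromosome 11 window 3) and the nearest from outside at 0.29 (chromosome 21 window 2). Against parental cells windows lay closer to it. In clone 3 they were at −0.301 inside (chromosome 6 window 4) and 0.2981 outside (chromosome 4 window 16). In clone 4 they were at 0.302 inside (chromosome 18 window 4) and −0.2992 outside (chromosome 11 window 5). Uncorrected, clone 3 had 18 runs (13 higher and 5 lower) and clone 4 had 19 (13 higher and 6 lower). After GC correction 4 were left in clone 3 and 4 in clone 4, and the lower ones were on chromosome 10 in either clone. Between the clones there was 1 run with and without the correction, windows 8 to 12 of chromosome 8.

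Chromosome 10 stood lower than every other autosome in both clones. The median over its 449 genes was −0.41 in clone 3 and −0.40 in clone 4, and −0.49 and −0.50 after GC correction, while the corrected medians of the 21 other autosomes lay between −0.04 and 0.18 in clone 3 and between −0.05 and 0.11 in clone 4. Of its 14 windows, limma called 8 lower and 1 higher in clone 3 and 9 lower and 1 higher in clone 4, or 11 and 10 lower with 1 higher each after GC correction. Over all 282 windows 27% and 29.1% were called lower, and 18.4% and 20.2% after correction. Window 11, positions 100000001 to 110000000, was the lowest of all 282 windows in both clones without correction, at −0.83 and −0.86. With correction it was at −0.70 and −0.66, and the lowest were window 8 in clone 3 (−0.72) and window 3 in clone 4 (−0.80), both of chromosome 10. After correction 9 of the 10 lowest windows of the genome were on chromosome 10 in clone 3 and likewise in clone 4.

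The shift was present in all 4 EIR libraries. Over windows 1 to 11 the median against parental was −0.52 in untreated clone 3, −0.51 in treated clone 3, −0.52 in untreated clone 4 and −0.57 in treated clone 4. The libraries therefore differed by far less from each other than from the parental library. After GC correction the medians were −0.59, −0.56, −0.63 and −0.58 in the same order, and the clone medians −0.58 and −0.60, or 67.1% and 66.0% of the parental level. Single genes spread widely around these medians, with quartiles of −0.94 and −0.04 in clone 3 and of −0.999 and −0.05 in clone 4.

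**Figure D3:**
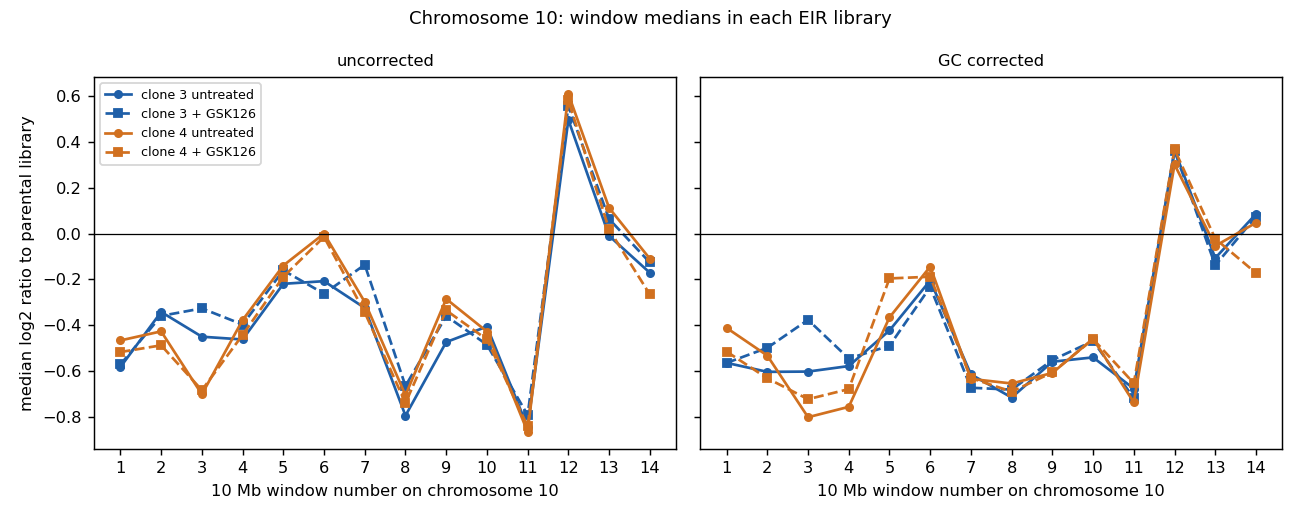
Window medians along chromosome 10 (log2 ratio to the parental library) in each EIR library, uncorrected on the left and GC corrected on the right. Windows 1 to 11 lie at or below 0 in all 4 libraries, window 12 lies near 0.5 to 0.6 uncorrected, and windows 5 and 6 are the shallowest of the lowered stretch.

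The depth of the shift varied along the chromosome. Windows 1 to 4 (106 genes), which end just past the start of the centromere gap at 39154936 to 42354935, had medians of −0.48 in clone 3 and −0.55 in clone 4. Windows 5 and 6 (40 genes) on the other side of the gap were shallow, at −0.19 and −0.06, and at −0.25 and −0.09 after correction, so that in clone 4 their uncorrected median was close to the −0.08 of all autosomal genes. DESeq2 called 20% and 25% of them lower in clone 3 and clone 4, near the 19% and 22.4% of all expressed autosomal genes. By the definition of a run, the lowered windows were therefore 2 runs in each clone, windows 1 to 4 and 8 to 11 in clone 3 and windows 1 to 4 and 7 to 11 in clone 4. Windows 7 to 11 (225 genes) were the deepest of the 3 sections without correction, at −0.60 and −0.61. With it they were at −0.65 and −0.63, and windows 1 to 4 at −0.55 and −0.63. In clone 4 these sections were thus level after correction. Within windows 7 to 11, windows 8 and 11 stood at −0.74 and −0.83 in clone 3 without correction. Window 7, whose genes had a median GC content of 40.1%, moved in that clone from −0.23 to −0.65 with the correction.

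The stretch ended within window 12. Its 26 genes had medians of 0.52 in clone 3 and 0.64 in clone 4, and 0.36 and 0.30 after correction, against −0.83 and −0.86 in window 11. When the 449 genes were put in order and the best single step between a lower and a higher level was sought, it fell between MXI1, which ends at 112047123, and SMNDC1, which starts at 112050488, in 5 of 8 sets of values. In treated clone 3 the step lay at PDCD4 and BBIP1, in untreated clone 4 between DUSP5 (end at 112271291) and SMC3 (start at 112327442), and in corrected clone 4 between ITPRIP (end at 106098223) and XPNPEP1 (start at 111624524). The 8 sets share the parental library. Windows 12 to 14 together (78 genes) had medians of 0.20 and 0.22, or 0.12 and 0.12 after correction.

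The limits of windows 1 to 11 were read from the ratios to parental cells. Shares of their genes below 0 or called therefore describe the stretch and do not test it. Most genes of windows 1 to 11 took part. The ratio was below 0 in 76.8% of them in clone 3 and 77.9% in clone 4, against 52.95% and 54.28% of the genes on the other autosomes. DESeq2 called 174 (46.9%) lower and 23 (6.2%) higher in clone 3, and 178 (48%) lower and 33 (8.89%) higher in clone 4. Over all 16886 genes tested in clone 3, 14.5% were called lower, and over 16295 in clone 4, 18.3%. Over the 11001 expressed autosomal genes 19% and 22.4% were called lower and 17.8% and 17.6% higher. In windows 12 to 14, 10 of 78 genes (12.8%) were called lower and 19 (24.4%) higher in clone 3, and 11 (14.1%) and 22 (28.2%) in clone 4. Without the untreated clone 3 library the count of lower genes in windows 1 to 11 of clone 3 fell to 84 (22.6%, expressed autosomal genes 7.88%), and without the treated one to 94 (25.3%, 8.02%).

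**Figure D4:**
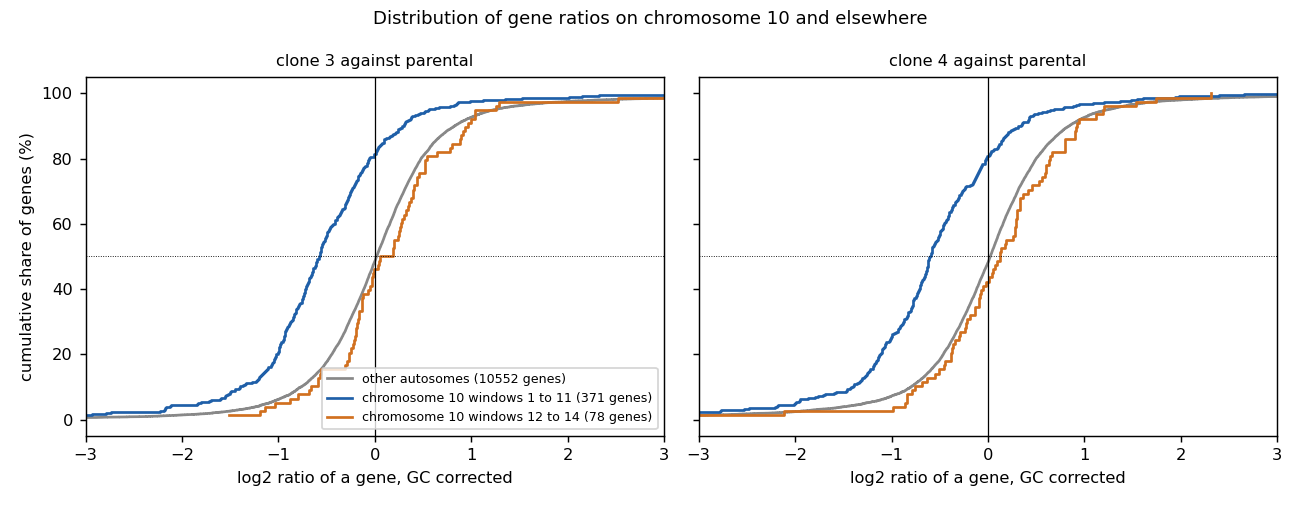
Cumulative share of genes (%) against their GC corrected log2 ratio to parental cells, for chromosome 10 windows 1 to 11 (371 genes), windows 12 to 14 (78 genes) and the other autosomes (10552 genes), in clone 3 and clone 4. The whole curve of windows 1 to 11 is moved to the left at its middle by about the median of −0.58 and −0.60, while windows 12 to 14 lie on or to the right of the other autosomes over most of the range.

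Genes of every expression level were lowered. With expressed genes split at means of 564.8 and 1723 normalized counts, the lowest, middle and highest tertile of windows 1 to 11 had corrected medians of −0.61, −0.58 and −0.56 in clone 3 and −0.59, −0.49 and −0.64 in clone 4. Broadly expressed machinery genes (proteasome, mitochondrial ribosome, respiratory chain, translation, splicing, transcription and sorting complexes, chosen by symbol prefix) had 8 members there, with medians of −0.84 and −0.74. DESeq2 called 6 of them lower in clone 3 and 5 in clone 4. The 327 machinery genes on the other autosomes had medians of 0.03 and −0.06, with 9.79% and 15.3% called lower. The 17 long non-coding RNAs of the stretch had medians of −0.33 and −0.10, with 3 (17.6%) called lower in each clone, while the 337 on the other autosomes had medians of 0.21 and 0.50, with 7.42% and 3.56% called lower.

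In windows 1 to 4 the genes with the highest mean normalized count were ITGB1, VIM, GDI2 and KIF5B. VIM, which encodes the intermediate filament vimentin (chromosome 10, 17270240 to 17279592), was at 83091.5 normalized counts in parental cells, 33550.8 and 37558.1 in untreated and treated clone 3, and 37552 and 40141.4 in untreated and treated clone 4. All 4 EIR libraries were below parental, with log2 fold changes of −1.22 ± 0.16 (SE; DESeq2 adjusted p = 2.9e-13) and −1.10 ± 0.16 (8.63e-11). ITGB1, the beta 1 integrin subunit, was at 102653 in parental cells, 54759 and 58703 in clone 3, and 74779.5 and 54664.1 in clone 4. It fell by 0.86 ± 0.19 in clone 3 (DESeq2 adjusted p = 8.16e-05) and by 0.67 ± 0.19 in clone 4 (0.00274, and 0.0511 by edgeR).

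GDI2, which recycles Rab GTPases from membranes, fell from 36741 in parental cells to 20389.7 and 19797 in clone 3 and 18484.6 and 15602.9 in clone 4. KIF5B, a kinesin heavy chain that carries cargo along microtubules, went the other way, from 14165 to 19955.5 and 24292.6 in clone 3 and 21572.9 and 17453.3 in clone 4. Its fold changes of 0.64 ± 0.19 and 0.46 ± 0.19 (DESeq2 adjusted p = 0.00349 and 0.0434) did not pass with GC factors in the model (0.121 and 0.605), by edgeR (0.0518 and 0.119) or without the treated clone 3 library (0.272 and 0.168). In clone 4 it also did not pass with TMM library sizes (0.0515) or without the untreated library of clone 3 (0.168) or of clone 4 (0.175). Not every gene of the stretch thus shared the direction of its neighbours.

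The genes of windows 1 to 4 with the most extreme called ratios were larger changes of single genes. PRTFDC1, a paralogue of the purine salvage enzyme HPRT1, had 2191 counts in parental cells, 10 and 8 in clone 3 and 3 and 3 in clone 4. Parental cells exceeded clone 4 by a depth-adjusted ratio of 709.2 (95% exact counting interval 325.3 to 1935). OTUD1, a deubiquitinase, was at 3104.1 normalized counts in parental cells, 304.6 and 353.8 in clone 3, and 308.2 and 436.9 in clone 4, a log2 fold change of −3.24 ± 0.26 and −3.06 ± 0.26. AKR1C1, an aldo-keto reductase that acts on steroids, rose from 48.3 to 155.5 and 145.3 in clone 3 and 211.6 and 205.2 in clone 4, and in clone 3 it did not pass without its untreated library (DESeq2 adjusted p = 0.0833) or its treated one (0.0676).

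Among genes of windows 7 to 11, RPS24, a protein of the small ribosomal subunit, had the highest mean normalized count. It was at 45228.5 normalized counts in parental cells, 28486.7 and 28501.6 in clone 3, and 31910.3 and 25103.4 in clone 4. It fell by 0.67 ± 0.18 in each clone (DESeq2 adjusted p = 0.00108 and 0.000987), and the call in clone 3 did not hold without its untreated library (0.0940) or its treated library (0.0955). MYOF, a membrane repair protein of the ferlin family, was at 29285.8 in parental cells, 14348.9 and 15383.4 in clone 3, and 15772.6 and 19160.8 in clone 4. Its 4 EIR values lay below parental, at −0.98 ± 0.17 and −0.75 ± 0.17. DDX21, a nucleolar RNA helicase, was higher in clone 3 (22004.3 and 22429.7, against 15077.5 in parental cells, log2 fold change 0.56 ± 0.19, DESeq2 adjusted p = 0.0144). That call was lost with GC factors (0.118), by edgeR (0.0856) and without the untreated (0.196) or treated (0.245) clone 3 library. BICC1, an RNA-binding protein, gave −0.33 ± 0.15 and −0.02 ± 0.15 and passed in neither clone, though in clone 3 it did with GC factors (−0.43, DESeq2 adjusted p = 0.00421) and without the untreated (0.0215) or the treated (0.0244) clone 4 library.

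COL17A1, the collagen of hemidesmosomes, lies in window 11 and was at 3263.3 in parental cells, 212 and 260.9 in clone 3, and 136.3 and 221.1 in clone 4. Its log2 fold changes were −3.79 ± 0.28 and −4.19 ± 0.29, and all 4 EIR libraries were far below the parental one. AS3MT, the arsenite methyltransferase in the same window, fell from 478.4 to 14.8 and 16.8 in clone 3 and 27.5 and 37 in clone 4. ANKRD1, a transcription cofactor with ankyrin repeats that responds to YAP, rose inside the lowered stretch from 17.1 in parental cells to 1209.1 and 1708.7 in clone 3 and 686.6 and 572.4 in clone 4. ABCC2, an efflux transporter of conjugated organic anions, rose from 41.3 to 207.4 and 218.4 in clone 3 and 220.7 and 318.4 in clone 4. Single genes thus moved by several log2 units in either direction around a regional median of about −0.60.

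Genes of the cancer gene list were also read in these stretches. SUFU, a repressor of Hedgehog signalling, was at 586.2 in parental cells, 242.6 and 242.1 in clone 3, and 235 and 359.7 in clone 4. Its fold changes were −1.27 ± 0.34 and −0.98 ± 0.34 (DESeq2 adjusted p = 0.00112 and 0.0147), the first not past the threshold without either clone 3 library (0.0630 and 0.0684) and the second not with GC factors (0.148), with total count scaling (0.0557), without the untreated clone 4 library (0.159) or without either clone 3 library (0.0842 and 0.0805).

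FAS, a death receptor, separated the clones. It was at 3741.7 in parental cells, 4495.7 and 4501.6 in clone 3, and 2547.2 and 2010.1 in clone 4, lower in clone 4 than in clone 3 by 0.98 ± 0.16 on the log2 scale (DESeq2 adjusted p = 1.55e-08). KLF6, a zinc finger transcription factor in window 1, was at 3728.6 in parental cells, 2977.4 and 2776 in clone 3, and 964.4 and 1335.2 in clone 4. It gave −0.37 ± 0.21 in clone 3 (DESeq2 adjusted p = 0.195) and fell by 1.70 ± 0.22 in clone 4, a difference between clones of −1.32 ± 0.18 (5.47e-12).

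The clones resembled each other over chromosome 10 as a whole. Clone 4 against clone 3 had a median of −0.01 over windows 1 to 11, with 27 genes (7.28%) called lower and 18 (4.85%) higher by DESeq2. The background was 8.08% lower over the 18068 genes tested and 9.33% lower and 6.34% higher over expressed autosomal genes. In the untreated pair the median was 0.03 and in the treated pair −0.08, and −0.01 and −0.004 after GC correction. Of the 14 windows only window 3, positions 20000001 to 30000000, was called lower in clone 4 without correction, at −0.22 (limma adjusted p = 0.0249), with −0.12 in the untreated and −0.26 in the treated pair. Its 30 genes had medians of −0.41 in clone 3 and −0.67 in clone 4.

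Some genes within the stretch stood far lower in clone 4 than in clone 3. SH3PXD2A, a scaffold of podosomes in window 11, was at 627.5 normalized counts in parental cells, 463.8 and 424 in clone 3, and 5.1 and 5.3 in clone 4. CELF2, a splicing regulator in window 2, was at 532.8 in parental cells, 259.2 and 346.9 in clone 3, and 8.1 and 15.9 in clone 4. The differences between clones were −6.42 ± 0.52 and −4.66 ± 0.43 on the log2 scale (DESeq2 adjusted p = 3.86e-32 and 3.15e-25). PLXDC2 in window 3 had 18 counts in parental cells, 541 and 584 in clone 3, and 2 and 3 in clone 4, so that clone 3 exceeded clone 4 by a depth-adjusted ratio of 207.4 (95% exact counting interval 88.6 to 639.9). SLC16A9, of the monocarboxylate transporter family in window 7, had 124 counts in parental cells, 557 and 660 in clone 3, and 2 and 3 in clone 4, a ratio of 224.3 (95.9 to 692.2). These intervals cover counting error only. ZNF37A, a zinc finger gene next to the centromere gap, was higher in both clones, at 900.4 in parental cells, 1804.4 and 2028.9 in clone 3, and 3383.4 and 2616.3 in clone 4.

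Chromosome 8 was where the clones differed over many neighbouring genes. Of its 15 windows limma called 5 lower in clone 4 than in clone 3 and none higher, and windows 8, 9, 10 and 11 of these neighbour each other. Over all 282 windows 12.1% were called lower. After GC correction 9 of the 15 were called lower, windows 2, 4 and 7 to 13, against 14.5% of all windows. The values by window that follow are uncorrected. Window 8 was at −0.48 (adjusted p = 3.66e-05), window 9 at −0.52 (5.8e-07), window 10 at −0.38 (4.75e-07) and window 11 at −0.40 (0.00133), by limma. Window 12 was at −0.39 and did not pass (0.126), though it did after GC correction (limma adjusted p = 0.000719). Without the treated clone 3 library windows 8, 9, 10 and 11 did not pass, at limma adjusted p-values of 0.154, 0.0794, 0.0942 and 0.424. Window 11 also did not pass without the treated clone 4 library (0.1001) or with treatment as a block (0.101). With genes of a mean of at least 1 normalized count window 9 was at −0.21 and did not pass (0.134).

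The difference had the same sign in both treatments, though the stretch was chosen on their combined values. The size of the difference depended on the correction. Over windows 8 to 12 (positions 70000001 to 120000000, 108 genes) clone 4 was lower than clone 3 by a median of 0.24 in the untreated and 0.55 in the treated pair on the log2 scale. Over all autosomal genes these pairs were at 0.003 and −0.09. After GC correction the medians of the stretch were −0.36 and −0.46, and the combined value −0.41 against −0.42 before it. Whether treatment changed the difference was not tested, since each clone has 1 library per treatment. By window, the untreated pair ran from −0.20 (window 12) to −0.44 (window 8) and the treated pair from −0.45 (window 12) to −0.72 (window 9). After correction window 8 had the larger difference in the untreated pair, at −0.55 against −0.41, and the other 4 windows in the treated pair.

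Against parental cells, the stretch was raised in clone 3 and less so in clone 4. The medians over windows 8 to 12 were 0.62 and 0.76 in untreated and treated clone 3, and 0.40 and 0.29 in untreated and treated clone 4. The 4 libraries thus stood above parental before correction, with clone 3 above clone 4. Since the genes of this stretch had a median GC content of 41.4%, against 48.4% for all autosomal genes, correction lowered these values to 0.35 and 0.38 in clone 3 and to 0.07 and 0.09 in clone 4. In clone 3 the run began at window 6 uncorrected (0.35) and reached its highest value in window 9 (1.02, and 0.74 corrected). Windows 6 and 7 (40 genes) differed between the clones by −0.23, windows 13 to 15 (106 genes) by −0.14 and windows 1 to 5 (147 genes) by −0.03.

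**Figure D5:**
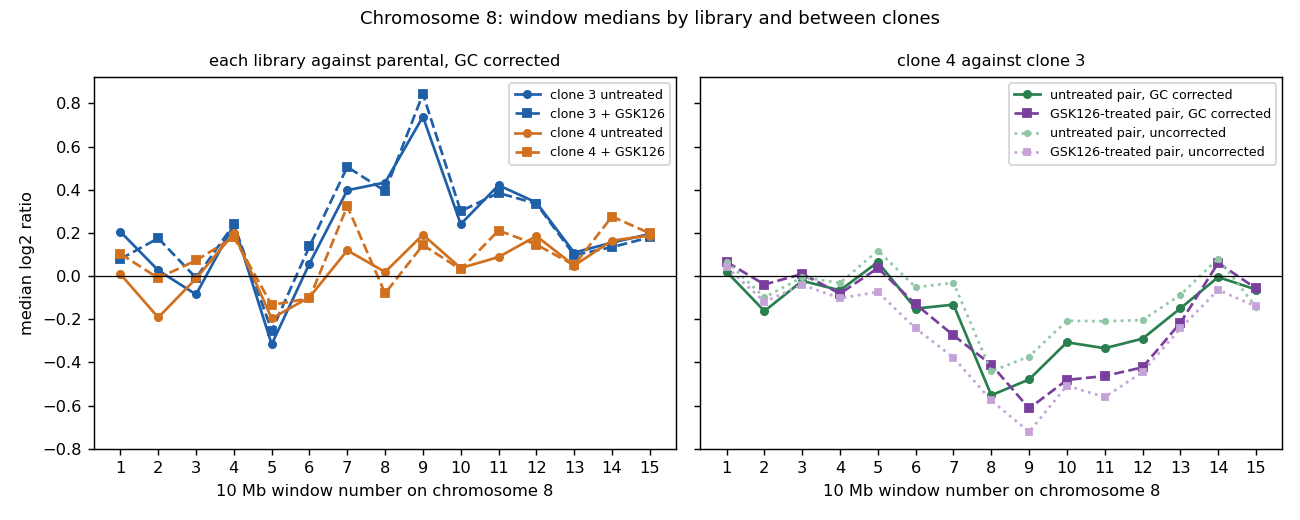
Window medians along chromosome 8: each EIR library against the parental library after GC correction (left), and clone 4 against clone 3 within the untreated and the treated pair (right). Clone 3 lies above clone 4 in windows 8 to 12 on the left, and on the right the medians of these windows are below −0.2 in both pairs with and without correction.

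Placed in order along the chromosome, the genes of clone 4 against clone 3 stepped down between TRIM55 (end at 67087720) and RRS1 (start at 67341249) in the untreated pair, the treated pair, the combined values and the corrected ones. The return step was less fixed across the 4 sets of values. It fell between COL14A1 (end at 121385812) and MRPL13 (start at 121393000) in the combined and corrected values, at MRPL13 in the treated pair, and as early as between MMP16 (end at 89340254) and RIPK2 (start at 90770034) in the untreated pair. Between the steps of the combined values lay 125 genes with a median of −0.41, against −0.03 before them and −0.14 after them. In clone 3 against parental cells, after correction, the steps lay between PDE7A (end at 66754557) and TRIM55 (start at 67039131) and between OTUD6B (end at 92099323) and TRIQK (start at 93895760), with a median of 0.63 over the 54 genes between them. In clone 4 against parental cells, after correction, the same search did not mark this stretch. Its steps lay between NEIL2 (end at 11644854) and FDFT1 (start at 11653082) and between ZDHHC2 (end at 17082308) and CNOT7 (start at 17082475). The 10 genes between them had a median of −0.99977, against 0.0569 before them and 0.08052 over the 371 genes after them. The centromere gap of the chromosome, at 43838888 to 46838887, lies well before the steps beside TRIM55.

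The limits of windows 8 to 12 were read from the ratios of clone 4 to clone 3. Shares of their genes below 0 or called therefore describe the stretch and do not test it. Most of the 108 genes took part, in moderate steps. The ratio of clone 4 to clone 3 was below 0 in 81.5% of them, and DESeq2 called 47 (43.5%) lower and 6 (5.56%) higher, against the 9.33% and 6.34% of expressed autosomal genes. Without the untreated clone 3 library 12 were called lower (11.1%, expressed autosomal genes 4.2%), without the treated one 10 (9.26%, 3.75%), and without the treated clone 4 library 27 (25%, 7.74%). Against parental cells 62 (57.4%) were called higher and 7 (6.48%) lower in clone 3, and 40 (37%) higher and 11 (10.2%) lower in clone 4. Of expressed autosomal genes 17.8% were higher and 19% lower in clone 3, and 17.6% and 22.4% in clone 4. With GC factors in the model these became 46 (42.6%) and 10 (9.26%) in clone 3 and 25 (23.1%) and 22 (20.4%) in clone 4. Expressed autosomal genes were then at 16.9% and 16.4% in clone 3 and at 16.6% and 17.8% in clone 4, so that the shares of clone 4 were near the background. The 7 machinery genes of the stretch had a median between clones of −0.42, while the 321 on the other autosomes were also lower in clone 4, at −0.11. The tertiles of expression in the stretch were at −0.34, −0.41 and −0.42 from lowest to highest.

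YWHAZ, the zeta isoform of the 14-3-3 phosphoprotein-binding proteins, had the highest mean normalized count of the stretch. It was at 29055.2 normalized counts in parental cells, 41954.3 and 38880.4 in clone 3, and 22947.3 and 23043.6 in clone 4. Clone 4 was lower than clone 3 by 0.81 ± 0.12 (DESeq2 adjusted p = 2.28e-09). TRAM1, which helps proteins cross the endoplasmic reticulum membrane, was at 4996.6 in parental cells, 24547.5 and 26214.8 in clone 3, and 10922.3 and 7595.1 in clone 4. It was higher in both clones and lower in clone 4 than in clone 3, with a log2 difference of −1.45 ± 0.17 (DESeq2 adjusted p = 3e-16).

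EIF3E, a subunit of translation initiation factor 3, was at 9876.4 in parental cells, 15322.8 and 17453.8 in clone 3, and 13901.8 and 9382 in clone 4. UQCRB, a subunit of respiratory complex III, was at 9530 in parental cells, 14204.5 and 15562.2 in clone 3, and 12188.8 and 9289 in clone 4. They differed between the clones by −0.49 ± 0.18 and −0.47 ± 0.15 (DESeq2 adjusted p = 0.0414 and 0.0217). Neither passed by edgeR (0.151 and 0.106), with treatment as a block (0.0693 and 0.0596), without the untreated clone 3 library (0.334 and 0.337), without the treated one (0.754 and 0.643) or without the treated clone 4 library (0.320 and 0.141).

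The extremes of the stretch between the clones were FABP5 and TP53INP1 on the lower side and SBSPON and PAG1 on the higher side. FABP5, a fatty acid binding protein, was at 765.5 in parental cells, 4916 and 5918.7 in clone 3, and 355 and 471.9 in clone 4, a difference of −3.71 ± 0.18 (DESeq2 adjusted p = 9.78e-92). TP53INP1, a target of p53, was at 936.7 in parental cells, 232.4 and 198.6 in clone 3, and 15.3 and 19 in clone 4. It was thus lowest in clone 4 but below parental in all 4 libraries. SBSPON was at 4895.9 in parental cells, 1083.2 and 1430 in clone 3, and 3498.3 and 3835.1 in clone 4, and PAG1, an adaptor of Src-family kinase control, rose from 246.8 to 705.5 and 931.9 in clone 3 and 1670.3 and 2025 in clone 4.

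In clone 3 against parental cells the largest called rises of windows 6 to 12 were GDAP1 and ZFHX4. GDAP1, a protein of the outer mitochondrial membrane, was at 5 normalized counts in parental cells, 350 and 371.6 in clone 3, and 84.4 and 78.3 in clone 4. ZFHX4, a homeodomain and zinc finger transcription factor, was at 137 in parental cells, 2947.7 and 2791.8 in clone 3, and 244.1 and 646.4 in clone 4. The libraries of clone 4 lay between parental cells and clone 3 for both genes. ASPH, an aspartate hydroxylase in window 7 and among the genes of the run with the highest mean counts, was at 19382.2 in parental cells and 18653.9 to 24323.6 in the EIR libraries and passed in neither clone, although GC factors turned the clone 3 value to −0.37 (DESeq2 adjusted p = 0.0321).

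Outside chromosomes 8 and 10 the runs against parental cells lay where base composition was extreme. The 23 higher runs of the clones (12 of clone 3 and 11 of clone 4) had a median GC content of 39.9% to 43.9%, and 5 of them kept a median past 0.3 after correction. The 7 lower runs had a GC content of 53.1% to 60.4%, and 0 of them did. Windows 1 and 2 of chromosome 19 (345 genes) went from −0.36 and −0.44 in clone 3 and clone 4 to −0.05 and −0.06. Windows 7 to 10 of chromosome 1 (109 genes) went from 0.41 and 0.41 to 0.08 and 0.19. Windows 2 and 3 of chromosome 21, with 16 genes only, went from 0.57 and 0.54 to 0.22 and 0.49.

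Of the 282 windows 52 were past 0.3 upwards in both clones and 19 downwards, 0 were past it in opposite directions, 22 were past it in clone 3 alone and 23 in clone 4 alone. The clones share the parental library, so a window of unusual level in that library moves both ratios together. After GC correction 12 windows were past it upwards in both clones and 9 downwards, 21 in clone 3 alone and 7 in clone 4 alone. The 9 lower windows were all on chromosome 10. The 12 higher windows lay on 9 chromosomes and held 5 to 29 genes each, with corrected medians of 0.31 to 0.71 in clone 3 and 0.30 to 1.08 in clone 4. Window 12 of chromosome 10, at 0.36 and 0.2993 after correction, was past the limit in clone 3 only.

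Between the clones 9 windows were past 0.3, 5 of them on chromosome 8. The 4 others were small. Window 15 of chromosome 2 (6 genes) was higher in clone 4 by 0.41, with 0.45 in the untreated and 0.35 in the treated pair (limma adjusted p = 0.00235). ZEB2, a repressor of epithelial genes, led it at 83.6 normalized counts in parental cells, 85.2 and 117.6 in clone 3, and 231.9 and 388.3 in clone 4. The last window of chromosome 6 (7 genes), from 170000001, was higher by 0.43, with 0.49 and 0.42 in the pairs (0.00443 by limma). PSMB1, a proteasome subunit, was there at 4344 in parental cells, 3244.9 and 3323.5 in clone 3, and 5089.3 and 4438.2 in clone 4. Neither window passed without the untreated clone 3 library (limma adjusted p = 0.264 and 0.360) or without the treated one (0.221 and 0.203). With genes of a mean of at least 20 normalized counts they were at 0.23 and 0.34 and did not pass (0.170 and 0.0685), nor did they with a mean of at least 1 (0.144 and 0.276). ZEB2 and PSMB1 were chosen after their values were seen.

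Window 5 of chromosome 9 (5 genes) was higher in clone 4 by 0.85, with 0.47 in the untreated and 1.15 in the treated pair (limma adjusted p = 4.58e-08). It lies beside the centromere, and members such as CBWD7 and CNTNAP3B have near-identical copies, so that their estimated counts are uncertain. Window 3 of chromosome 11 (10 genes) was at −0.31 and did not pass (0.0730 by limma), though it did after GC correction (0.00210 by limma). The 9 windows with fewer than 5 genes were not tested. The widest gap between the clones among their genes was that of DUXAP9 in window 2 of chromosome 14, at −4.22 on the log2 scale. ENSG00000197991 in window 7 of chromosome 13 followed at −3.16, and then DUXAP10, beside DUXAP9, at −2.74. DUXAP9 and DUXAP10 are copies of a pseudogene family, and these genes are named here after their values were seen. DUXAP10 had 140 counts in parental cells, 1911 and 1981 in clone 3, and 282 and 254 in clone 4, and DUXAP9 had 21 in parental cells, 1035 and 1164 in clone 3, and 58 and 50 in clone 4.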

How the data were processed

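RNA-seq libraries were total RNA (stranded kit, per the labels). The authors aligned reads to hg19 with bowtie2 and estimated counts per gene with RSEM, whose version differs between the methods and the submitters' processing notes (RSEM 1.2.3 there). The values deposited by the authors are these estimated counts, all whole numbers and not normalized. Reads shared by gene copies are split by estimation, and whether counting used the strand is not stated. The depth, 25479238 to 30764963 counts per library, limits the precision of low genes.

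GENCODE release 44 mapped to GRCh37 gave symbols, positions and GC content for 95.82% of identifiers, and unmatched ones held 3.058% of counts. Genes were placed by midpoint. Ratios are log2 of normalized counts plus 0.5, with median-of-ratios size factors. Window medians were tested with limma 3.58.1 (trend on the number of genes, residual degrees of freedom 2), and genes with DESeq2 1.42.0 (two-sided Wald test, 3 groups, adjusted p under 0.05), the tool named in the methods, in R 4.3.3. The prior degrees of freedom of limma were infinite, so the error of a window came from the trend and not from its own libraries. GC correction was a lowess with span 0.3. Both procedures were also run on simulated counts with shifts in clone 4 only. Those counts had no trend with GC content and no difference between treatments. They therefore cannot show how often windows are called wrongly in the real data.

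The windows, gene lists and tests were chosen with earlier results of these data known, and the limits of the stretches on chromosomes 8 and 10 were read from these values. Named genes were, in each run, the 4 most abundant, the 2 highest and 2 lowest called ratios, and listed cancer genes, of which some are not reported here. Alternatives were edgeR 4.0.16, TMM and total count scaling, other filters, pseudocounts, window starts and gene classes, GC correction, treatment as a block and leaving out each EIR library.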

Additional observations from a re-analysis of the deposited data

Results flagged for a closer look

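Listed here are windows with a difference of at least 0.3 between clone 3 and clone 4, and genes named by the naming rule in the runs of chromosomes 8 and 10, that passed the test of that difference. Smaller called windows and genes chosen after their values were seen are left to the report. By limma without GC correction, clone 4 was lower than clone 3 in windows 8, 9, 10 and 11 of chromosome 8, at −0.48, −0.52, −0.38 and −0.40, and higher in window 15 of chromosome 2 (0.41), window 18 of chromosome 6 (0.43) and window 5 of chromosome 9 (0.85). The windows of chromosomes 2, 6 and 8 did not pass without the treated clone 3 library.

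By DESeq2, the genes of chromosome 10 that were lower in clone 4 than in clone 3 were KLF6 (log2 fold change −1.32), ANKRD1 (−1.21), FAS (−0.98), CELF2 (−4.66), SH3PXD2A (−6.42), PLXDC2 (−7.70) and SLC16A9 (−7.81), and ZNF37A was higher (0.65). The last pair of lower values are fitted against clone 4 libraries of 2 and 3 counts and are no bounds. The ANKRD1 difference did not pass without the treated clone 3 library, nor the ZNF37A difference without either clone 3 library or without the untreated clone 4 library.

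On chromosome 8, YWHAZ (−0.81), TRAM1 (−1.45), EIF3E (−0.49), UQCRB (−0.47), FABP5 (−3.71), TP53INP1 (−3.65), GDAP1 (−2.15) and ZFHX4 (−2.69) were lower in clone 4, and SBSPON (1.55) and PAG1 (1.17) were higher. The ZFHX4 difference did not pass without either clone 3 library. The EIF3E and UQCRB differences did not pass by edgeR or with treatment as a block. Nor did they pass without either clone 3 library or without the treated clone 4 library.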

How the results depend on the processing

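Between the clones, 39 windows were called, against 21 with total count scaling (10 higher and 11 lower), 14 and 20 with mean filters of 500 and 1, 8 with machinery genes only, 71 after GC correction, 25 with edgeR on summed counts, 24 with treatment as a replicate block, and 6 to 65 without 1 EIR library (6 and 11 without the treated and untreated clone 3 library, 65 without the untreated clone 4 library). Machinery genes alone called 6 windows in clone 3 and 8 in clone 4 against parental, of few tested. Leaving out libraries gave 85 to 186 and 125 to 180. Total count scaling moved the split of called windows from 98 higher and 76 lower to 117 and 22 in clone 3, and from 90 and 82 to 116 and 39 in clone 4. Runs numbered 4 in clone 3 and 4 in clone 4 after GC correction, 4 and 3 with windows also shifted by 5 Mb (an alternative chosen after seeing the data), 0 and 1 with machinery genes, 3 and 1 past 0.5, and in clone 4 29 past 0.2 and 29 with a mean filter of 1. Between the clones there were 2 runs with a filter of 20 or 1, and 0 with machinery genes or past 0.5. The chromosome 10 median in clone 3 was −0.34 with total count scaling, −0.38 and −0.30 with filters of 500 and 1, −0.43 with protein-coding genes, −0.77 with machinery genes, −0.49 after GC correction and −0.44 to −0.40 without 1 library. In clone 4 it was −0.33, then −0.36, −0.38 and −0.22 with filters of 20, 500 and 1, −0.44, −0.59, −0.50 and −0.47 to −0.40. Between the clones it was 0.082 with a filter of 1 and −0.10 with machinery genes. Genes called numbered 1983 to 5023, 3339 to 4623 and 804 to 2233 without 1 library, the lowest without either clone 3 library (main counts 4925, 5368 and 2306). ASPH in clone 3 turned to −0.37 with GC factors. The chromosome 10 windows 1 to 11 lay between −0.84 and −0.40 in clone 3 and between −0.74 and −0.31 in clone 4 (nearest 0 with a filter of 1), and chromosome 8 windows 8 to 12 in clone 4 from 0.07 (GC correction) and 0.14 (machinery genes) to 0.52 (filter of 1). Of the counts and medians that answer a comparison, 116 alternatives stayed within 1.5 times or the spread and 51 moved past it. Of the values of single genes, windows and stretches, 1053 kept direction and call, 70 lost a call, 27 gained one and 31 moved past the spread. The causes were not tested.

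Treatment is shared by label only, and the deviations of same-treatment libraries from their clone means correlated at 0.055 over 11001 genes. With 1 parental library and 2 libraries of each clone, no spread between parental cultures or between clones of a kind was measured, and DNA was not measured.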
